A study of Mus musculus with 10 samples.

Results

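Messenger RNA levels of 4 keratin genes, Krt8, Krt18, Krt20 and Krt23, were followed through mouse liver exposed to a Western diet and carbon tetrachloride (CCl4) and in liver tumours. The 4 were chosen by name from the 24062 genes of the deposited table, with the high level of Krt20 in the tumours already known. Tumour values of all 4 are therefore given as a description, with no test, and the tests of these genes rest on the liver pools. Mice received a normal diet or a Western diet, together with CCl4, a liver toxin, or with oil, its vehicle, for 12 or 24 weeks. Each of the 8 combinations was represented by 1 library made from a pool of 4 mice. Another 2 libraries were each made from the tumour of 1 mouse given Western diet and CCl4 for 24 weeks, labelled hepatocellular carcinoma. The labels name no strain, sex, age or dose.

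Keratins are the intermediate filament proteins of epithelial cells and assemble only as pairs of a type I and a type II chain. Adult hepatocytes build their filaments from the type II keratin Krt8 and its type I partner Krt18, which protect the cell against mechanical and toxic stress and aggregate with p62 in the Mallory-Denk bodies of chronic liver injury. Bile duct cells carry Krt7 and Krt19 in addition. Krt20 is a type I keratin best known from intestinal, gastric and urothelial epithelium and from Merkel cells. Krt23 is a type I keratin of the same gene cluster that is known to respond to stress in liver.

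The genes lie in 2 pairs of neighbours on the GRCm38 assembly with GENCODE annotation. Krt8 (ENSMUSG00000049382.10, chr15:101996698-102004482, minus strand) and Krt18 (ENSMUSG00000023043.7, chr15:102028180-102032027, plus strand) are 23697 bases apart. The lincRNA gene Gm36026 overlaps the 5′ end of Krt8 on the opposite strand and has no row in the table. Whether reads were counted by strand is not given in the sources used here, so its reads cannot be told apart from those of Krt8. Krt20 (ENSMUSG00000035775.2, chr11:99428403-99438150, minus strand) and Krt23 (ENSMUSG00000006777.7, chr11:99477974-99493137, minus strand) are 39823 bases apart with no annotated gene between them. The last 250 bases before the RefSeq start of Krt20 (GRCm38.p6, chr11:99438154-99438403) and of Krt23 (chr11:99493121-99493370) are shown because Krt20 was high in both tumours and its neighbour Krt23 in tumour 2 alone. Both are written 5′ to 3′ on the minus strand, with capitals at matches to TATAAA, the TATA box, and to GGAATG, the core of TEAD sites, on either strand.
Krt20: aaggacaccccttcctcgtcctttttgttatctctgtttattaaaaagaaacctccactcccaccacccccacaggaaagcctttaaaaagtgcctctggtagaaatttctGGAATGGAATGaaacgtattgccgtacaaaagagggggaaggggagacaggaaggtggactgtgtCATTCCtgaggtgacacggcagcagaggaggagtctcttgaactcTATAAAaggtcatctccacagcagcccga
Krt23: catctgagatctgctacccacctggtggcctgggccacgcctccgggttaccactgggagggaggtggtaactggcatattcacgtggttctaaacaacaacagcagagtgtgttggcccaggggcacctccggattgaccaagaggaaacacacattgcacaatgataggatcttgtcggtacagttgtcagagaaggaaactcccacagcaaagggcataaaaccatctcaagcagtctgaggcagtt
Matches were counted in windows that add the 50 bases after the start. The Krt20 window held 3 matches to GGAATG, which begin 139, 134 and 74 bases before the start, and the first 2 overlap by a base. At least 1 such match stood in 14.7% of 32851 RefSeq promoter windows of this length, and at least 3 stood in 0.131%. Krt20 also held TATAAA, 29 bases before the start, as did 13.6% of windows, and 1 match to the NRF2 core TGACNNNGC, as did 12.4%. The Krt23 and Krt18 windows held none of these, nor the AP-1 site TGANTCA (7.81% of windows), nor the STAT site TTCNNNGAA (8.3%). The Krt8 window held 2 overlapping matches to TATAAA, on opposite strands, that begin 3 and 1 bases before the start, and none to the other 4 motifs. These motifs were chosen after the sequences were seen, and a match is only a run of letters.

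Libraries held 23206229 to 30137802 reads, and the deposited values are reads scaled to a library-wide constant, called normalised signal here. With 1 pool per condition there was no replicate of a condition. Pools of 12 and 24 weeks served as repeats of a diet and treatment, after a shift with duration shared by all combinations was taken out. Adjusted p-values are from limma with Benjamini-Hochberg adjustment over 12648 tested genes. Changes are differences of log2(signal + 1), given with the fit's standard error. Comparisons of diet or treatment set 2 pools against 2 others, while the interaction of diet with CCl4 and the comparison of durations take in all the pools. Both the p-values and the standard errors measure spread between these pools, not between animals. All 12 hepatocyte markers had a signal of at least 1 in every library. Tumour 2 stood apart in their sum: its 12 hepatocyte markers summed to 344400, against 101200 to 194500 in the pools and 123000 in tumour 1. Such a sum leans on the most abundant markers and does not show that all 12 were higher. In the comparison of both tumours with the pools of Western diet and CCl4, none of the 12 was called.

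**Figure D1:**
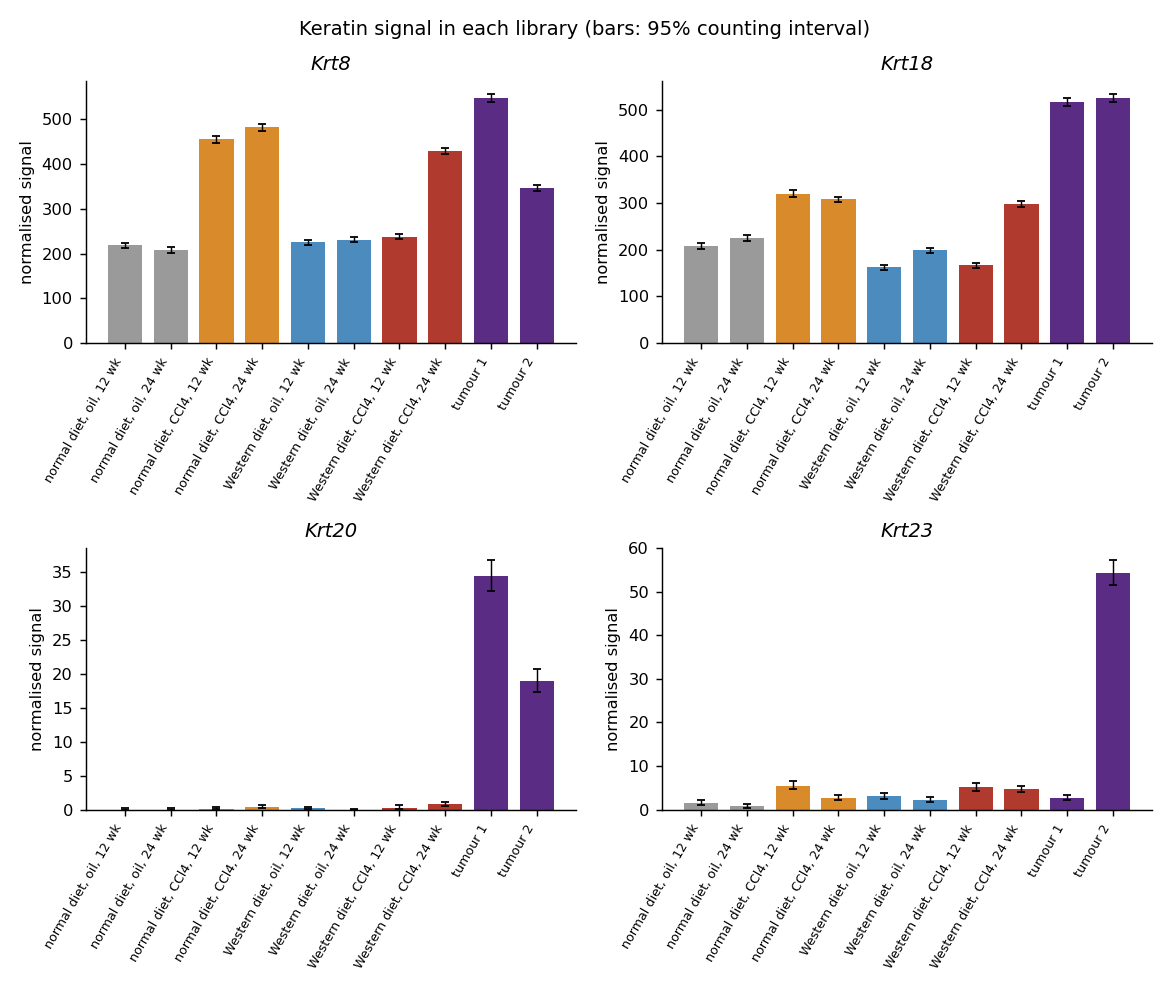
Normalised signal (linear axis from 0) of the 4 keratins in the 8 liver pools and 2 tumours, with 95% exact Poisson intervals that cover counting error only. At 24 weeks on normal diet Krt8 is 482 with CCl4 and 208 with oil, while Krt20 reaches 34.4 in tumour 1 and Krt23 reaches 54.3 in tumour 2.

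Krt8, the type II keratin of hepatocytes, was 2.19 times higher with CCl4 on a normal diet. With oil its normalised signal was 218 at 12 weeks and 208 at 24 weeks, and with CCl4 it was 455 and 482. On Western diet it was 225 and 230 with oil, and 238 and 430 with CCl4. The 4 oil pools were close together, 3 of the 4 CCl4 pools stood far above them, and the 12-week pool with Western diet and CCl4 stood only just above. On normal diet Krt8 rose with CCl4 by 1.13 ± 0.204 on the log2 scale (adjusted p = 0.00562), by 1.06 at 12 weeks and 1.21 at 24 weeks. On Western diet the difference between CCl4 and oil was 0.488 ± 0.204 (adjusted p = 0.185). It was 0.0787 at 12 weeks and 0.898 at 24 weeks. The difference between diets in the response to CCl4, tested as an interaction, was -0.645 ± 0.289 (adjusted p = 0.567).

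Krt20 had a signal under 1 in every pool and passed the filter on low values only through the tumours, so no test of it in the pools is given. Of the other 3 keratins, Krt8 and Krt23 passed the test for CCl4 on normal diet, where 26% of all tested genes did (3285 of 12648). With only 3 genes, that share is not set apart from the background. Krt8 lost its call without the 24-week pool of normal diet with oil (0.938, adjusted p = 0.0704). The call was also lost with no filter on low values (adjusted p = 0.06) and with the tumours added to the fit (adjusted p = 0.0792).

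Krt18, the type I partner of Krt8 in hepatocytes, differed less between CCl4 and oil. Its signal with oil on normal diet was 208 at 12 weeks and 225 at 24 weeks, and with CCl4 it was 320 and 308. On Western diet it was 162 and 198 with oil, and 166 and 298 with CCl4. As for Krt8, the 12-week pool with Western diet and CCl4 lay among or near the oil pools. The difference with CCl4 on normal diet was 0.536 ± 0.191 (adjusted p = 0.0693), and on Western diet it was 0.311 ± 0.191 (adjusted p = 0.354). None of Krt8, Krt18 and Krt23 passed the test for CCl4 on Western diet, where 6.82% of genes did. Without the 12-week pool with Western diet and CCl4, the difference on Western diet was 0.907 for Krt8 and 0.673 for Krt18. Without the 24-week pool with Western diet and CCl4, the Krt18 difference was -0.051. Leaving out either of those pools left the Krt18 difference on normal diet at 0.536. Such a fit keeps 1 pool of Western diet with CCl4, so the gap between its 12- and 24-week pools drops out of the spread. For that reason no test is drawn from it.

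**Figure D2:**
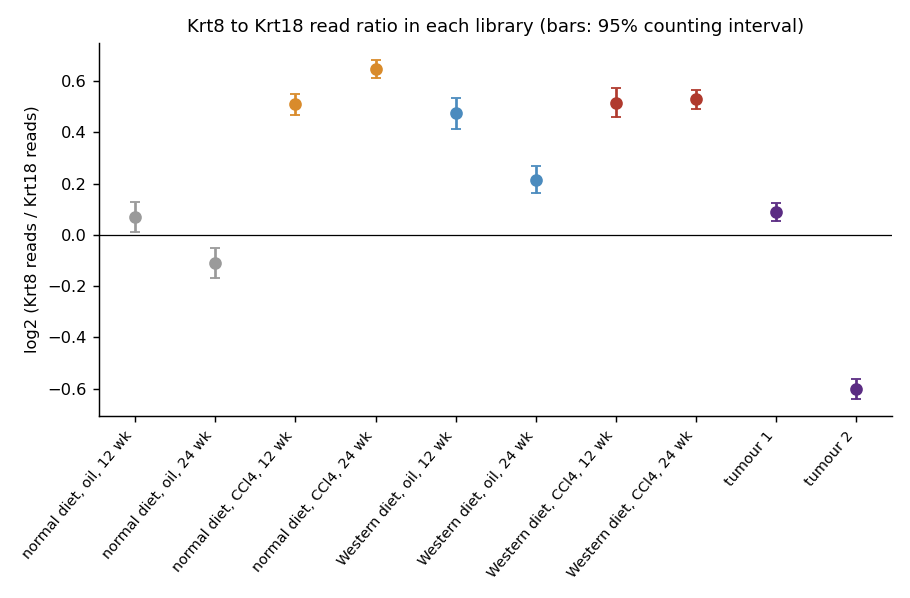
Log2 ratio of Krt8 reads to Krt18 reads in each library, with 95% counting intervals. The 4 CCl4 pools lie from 0.51 to 0.65, above all oil pools, and tumour 2 is lowest at -0.60.

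The balance of the 2 partners differed between libraries. Krt8 had 1.05 and 0.927 reads for each Krt18 read with normal diet and oil at 12 and 24 weeks, and 1.42 and 1.57 with CCl4. With Western diet the ratio was 1.39 and 1.16 with oil and 1.43 and 1.44 with CCl4. The 12-week pool with Western diet and CCl4, which had low levels of both genes, thus had the ratio of the other CCl4 pools. The nearest oil pool, Western diet at 12 weeks, had a 95% counting interval of 1.33 to 1.45, which includes the ratios of 3 of the 4 CCl4 pools. In the tumours the ratio was 1.06 and 0.658, and the ratio of tumour 2 was the lowest of all 10 libraries. Signal was also divided by the kilobases of exon in all protein-coding transcripts of a gene, so comparisons between genes depend on the gene model. Per kilobase of exon, the level of Krt8 relative to the summed type I members Krt18, Krt20 and Krt23 was 0.678 to 0.843 in 3 oil pools. In Western diet with oil at 12 weeks it was 1.0. It was 1.02 to 1.14 in the CCl4 pools, 0.74 in tumour 1 and 0.431 in tumour 2.

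Krt23, the stress-responsive type I keratin, was low in all pools and was called in both comparisons with normal diet and oil that involve CCl4. With normal diet and oil its signal was 1.51 at 12 weeks and 0.732 at 24 weeks (34 and 16 reads), and with CCl4 it was 5.53 and 2.76. With Western diet it was 3.12 and 2.26 with oil, and 5.19 and 4.71 with CCl4. The 2 pools without either exposure were the lowest of all 10 libraries. Krt23 rose with CCl4 on normal diet by 1.25 ± 0.216 (adjusted p = 0.00463) and with the joint exposure, Western diet with CCl4 against normal diet with oil, by 1.51 ± 0.216 (adjusted p = 0.00167). Each call was lost with the tumours added to the fit (adjusted p = 0.505 and 0.42), where the spread takes in the difference between tumours. For the joint exposure, 1 of these 3 keratins, Krt23, passed the test, where 25.9% of genes did. On Western diet Krt23 differed between CCl4 and oil by 0.697 ± 0.216 (adjusted p = 0.0897) and was not called.

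Western diet with oil, compared with normal diet with oil, gave no call among these 3 keratins, where 1.99% of genes were called. Krt23 differed by 0.814 ± 0.216 (adjusted p = 0.109) and was 2.07 times higher at 12 weeks and 3.09 times higher at 24 weeks. Krt8 differed by 0.0956 ± 0.204 (adjusted p = 0.843). Krt18 differed by -0.268 ± 0.191 (adjusted p = 0.497). Under CCl4 the diets were compared as well, with 0.0474% of genes called and none of the 3 keratins. Krt8 and Krt18 were 0.522 and 0.52 times as high on Western diet as on normal diet at 12 weeks, and 0.892 and 0.968 times as high at 24 weeks. The fitted differences were -0.55 ± 0.204 (adjusted p = 0.642) and -0.493 ± 0.191 (adjusted p = 0.66). Without the 24-week pool with Western diet and CCl4, they were -0.968 and -0.855, and the Krt8 interaction was -1.06. With a lone 12-week pool left in that group, no test is drawn from this fit.

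Krt20 was almost absent from the pools. It had 0 reads in 3 of the 4 oil pools and 4 reads in the fourth. In the pools with 0, a count of 3 reads would be a signal of 0.133 at 12 weeks and 0.137 at 24 weeks on normal diet. It would be 0.111 on Western diet at 24 weeks. At 12 and 24 weeks, the CCl4 pools held 4 and 15 reads where the diet was normal, and 8 and 28 where it was Western. These are signals of 0.159 and 0.445, and of 0.307 and 0.804. The highest pool, Western diet with CCl4 at 24 weeks, had 7.23 times the signal that 3 reads would give in its oil pool, which had 0. With so few reads, and with the tumours alone carrying it past the filter, no test of Krt20 in the pools is given. Some of its fitted differences are listed in the last section, only to show how they moved with the processing. No conclusion is drawn from them.

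**Figure D3:**
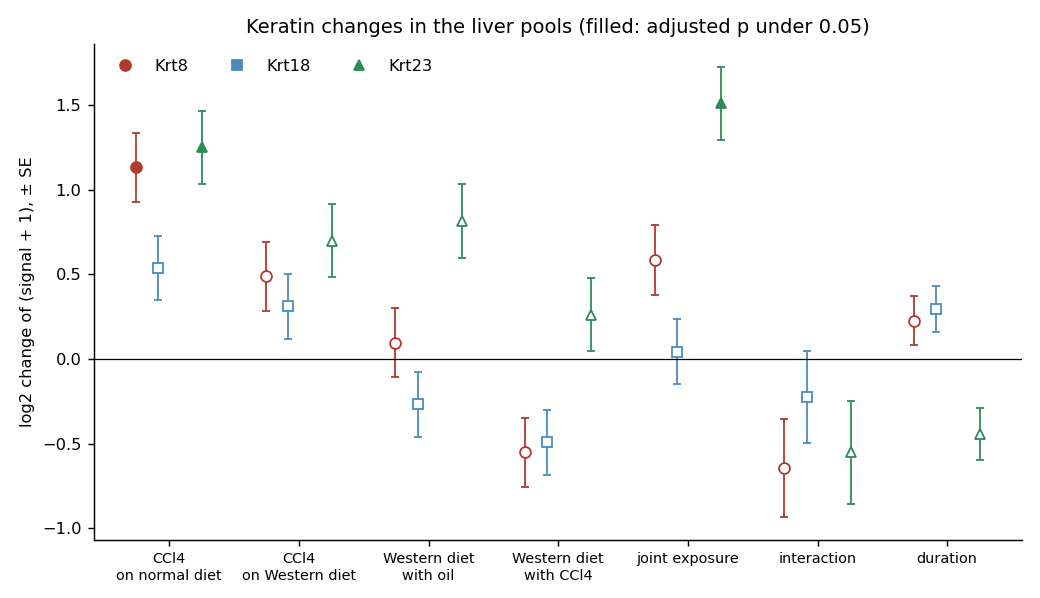
Fitted differences of log2(signal + 1) with standard errors for Krt8, Krt18 and Krt23 in 7 comparisons of the liver pools; interaction is the CCl4 difference on Western diet minus that on normal diet, duration is 24 minus 12 weeks. Filled symbols, at Krt8 and Krt23 with CCl4 on normal diet and Krt23 with the joint exposure, have an adjusted p below 0.05.

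None of Krt8, Krt18 and Krt23 was called for the interaction, where 0.103% of genes were, or for duration, where limma called 0% of genes. For duration, 1475 genes had an unadjusted p under 0.05, edgeR called 1 gene and DESeq2 called 90. Between 12 and 24 weeks Krt23 differed by -0.445 ± 0.153 (adjusted p = 0.35) and was lower at 24 weeks in all 4 combinations. Krt8 differed by 0.225 ± 0.145 and Krt18 by 0.296 ± 0.135. Most of that difference stood in Western diet with CCl4, where the 24-week pool was 1.81 times the 12-week pool for Krt8 and 1.79 times for Krt18. On normal diet with CCl4 the same ratios were 1.06 and 0.962.

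Markers of other cells moved with the CCl4 comparison on normal diet, in which 15.3% of all 12648 tested genes rose and 1347 genes fell. Of 12 hepatocyte markers, 5 fell, among them the fibrinogen chain Fgb (-1.19 ± 0.192, adjusted p = 0.00349). All 7 stellate cell markers rose, led by the collagen gene Col1a1 at 3.74 ± 0.267 (adjusted p = 0.000103), as did 4 of 6 macrophage markers, 4 of 5 endothelial markers and all 5 cell cycle markers. None of 5 tested lymphocyte markers was called. In bile duct cells Krt8 and Krt18 are abundant as well, and 4 of 9 tested bile duct markers without keratins rose, among them the adhesion molecule Epcam at 1.74 ± 0.521 (adjusted p = 0.0396) and the secreted phosphoprotein Spp1 at 2.26 ± 0.473 (adjusted p = 0.0105). The bile duct keratins Krt7 and Krt19 had differences of 1.06 ± 0.433 (adjusted p = 0.105) and 0.82 ± 0.353 (adjusted p = 0.119). With the joint exposure, where 15.7% of tested genes rose and 1294 fell, 5 of 12 hepatocyte markers fell. In it 6 of 7 stellate, 4 of 6 macrophage, 3 of 5 endothelial, 4 of 5 cell cycle and 1 of 5 tested lymphocyte markers rose. Of 9 tested bile duct markers without keratins 3 rose, among them Spp1 at 2.52 ± 0.473 (adjusted p = 0.00601) and Epcam at 1.97 ± 0.521 (adjusted p = 0.025), while Krt7 and Krt19 were not called. The part of these cell markers in the Krt8 and Krt23 results was not tested. In bulk tissue, more or fewer cells of a type and more or less RNA per cell cannot be told apart.

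The bile duct keratins were far below Krt8 in every library. Krt19 ran from 1.32 to 8.99 in the pools and Krt7 from 0.64 to 6.64, each highest in Western diet with CCl4 at 24 weeks. Per kilobase of exon in that pool, Krt8 stood at 220, Krt18 at 208, Krt19 at 5.71, Krt23 at 3.01, Krt7 at 1.55 and Krt20 at 0.417. The place of Krt7 depends on its gene model, which holds 4293 bases of exon, against 1576 for Krt19. Krt8 and Krt18 together made up at least 96.8% of the summed keratin signal in each pool, 95.9% in tumour 1 and 91.6% in tumour 2.

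In the tumours Krt20 was no longer a trace transcript. Its signal was 34.4 in tumour 1 and 18.9 in tumour 2, from 879 and 487 reads, against 28 reads in the highest pool. Relative to Western diet with CCl4 at 24 weeks, the tissue of the same exposure, the levels were 42.7 times (95% counting interval 29.4 to 64.7) and 23.5 times (16.1 to 35.7) as high. Both tumours lay far above all 8 pools. In normal diet with oil at 24 weeks no read was seen. The tumour levels were 250 and 138 times the signal that 3 reads would give there. Krt20 was 3.1% of the summed keratin signal in tumour 1 and 1.99% in tumour 2, compared with at most 0.107% in the pools. Per kilobase it stood at 17.8 and 9.81, well under Krt8 at 280 and 177.

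Krt23 separated the 2 tumours. Its signal was 2.7 in tumour 1, inside the range of the pools, and 54.3 in tumour 2, from 69 and 1400 reads. Tumour 2 was thus 20.1 times (95% counting interval 15.8 to 26.0) tumour 1. Against Western diet with CCl4 at 24 weeks the levels were 0.573 times in tumour 1 and 11.5 times in tumour 2. In tumour 2 Krt23 was 5.71% of the keratin signal, and per kilobase it stood at 34.7, above Krt20 at 9.81, whereas in tumour 1 Krt20 stood above Krt23 (17.8 and 1.72). With 1 mouse behind each tumour, this difference has no replicate.

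**Figure D4:**
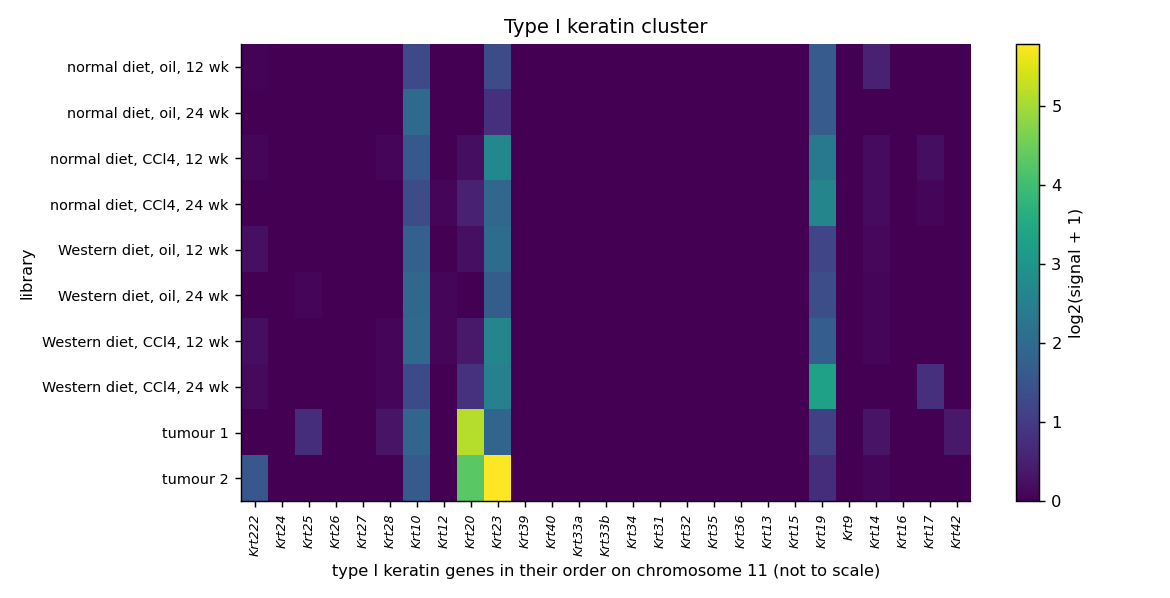
Colour gives log2(signal + 1) of the type I keratin genes in their order along chromosome 11 (columns, not to scale) in each library (rows). Krt20 is bright in both tumours and its neighbour Krt23 in tumour 2 alone, while most other columns are at or near 0.

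The rest of the keratin family stayed low around these 2 genes. The table lists 52 keratin genes, 48 of them besides the 4, and 34 of the 48 had no read in any library. Only 3 of the 48, Krt7, Krt19 and the epidermal keratin Krt10, had a signal of at least 1 in 2 libraries and were tested. In both tumours 44 of the 48 had a signal under 1. Krt222, an untested gene of the chromosome 11 cluster, was 1.98 in tumour 2 (51 reads), 0 in tumour 1 and at most 0.171 in the pools. Krt79, also untested, was 1.02 in tumour 1 (26 reads), 0.0776 in tumour 2 and at most 0.517 in the pools. Both were singled out after their values were seen. Krt10, which lies close to Krt20, was 2.7 and 2.14 in the tumours and 1.42 to 2.93 in the pools, and no comparison called it.

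The 2 hepatocyte keratins did not move alike in the tumours. Krt18 was 516 and 526, above all pools, or 1.73 and 1.76 times Western diet with CCl4 at 24 weeks. Krt8 was 549 in tumour 1, the highest of all libraries, but 346 in tumour 2, below 3 of the 4 CCl4 pools. These are 1.28 and 0.805 times the pool of the same exposure. The members together summed to 1102 in tumour 1 and 945 in tumour 2, against 391 to 794 in the pools.

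**Figure D5:**
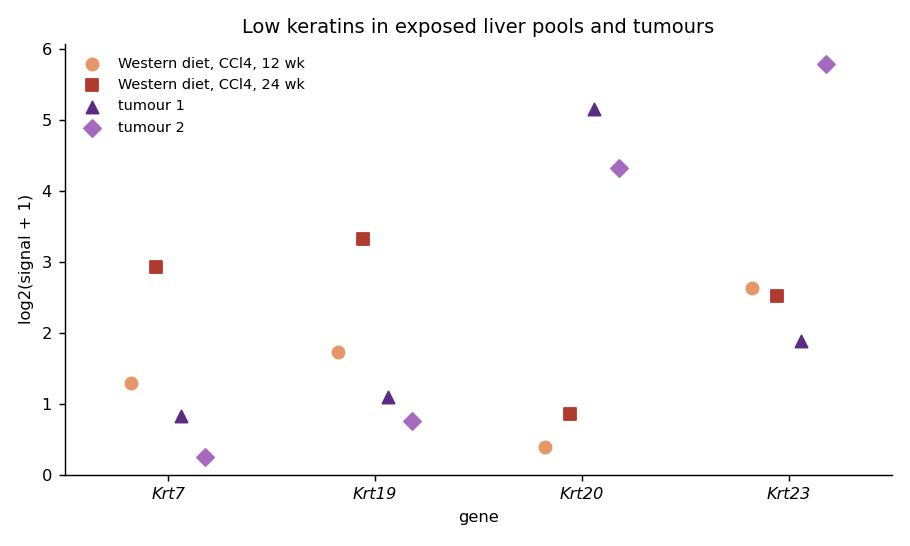
Points give log2(signal + 1) of the bile duct keratins Krt7 and Krt19 and of Krt20 and Krt23 in the 2 pools of Western diet with CCl4 and in the 2 tumours. Krt7 and Krt19 are lower in the tumours than in either pool, Krt20 is higher in both tumours, and Krt23 is higher in tumour 2 alone.

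Krt7 and Krt19 were lower in the tumours than in both pools of Western diet with CCl4, where Krt20 was higher. Krt19 was 1.13 and 0.699 in the tumours and Krt7 was 0.782 and 0.194. In Western diet with CCl4 they were 2.3 and 1.46 at 12 weeks, and 8.99 and 6.64, their highest levels, at 24 weeks. Krt19 in the tumours was below every pool. Krt7 in tumour 1 was above normal diet with oil at 24 weeks (0.64). The tumour comparison, of the 2 tumours against the 2 pools of Western diet with CCl4, called 0.972% of genes (123 of 12648), a count that was 2394 without tumour 1 and 2259 without tumour 2 and at most 8 without any 1 of the pools. It gave -1.85 ± 0.411 for Krt19 (adjusted p = 0.0892) and -1.8 ± 0.517 for Krt7 (adjusted p = 0.149), neither of them called. Both tumours were of 24 weeks, so the fit corrected for the duration shift estimated from the pools, 0.507 for Krt19 and 0.45 for Krt7. This correction makes both drops larger than plain differences of means. The other 10 bile duct markers summed to 474 and 1184 in the tumours and to 123 to 685 in the pools, and most of that sum was Spp1, at 357 and 772. The ductal chloride channel Cftr was at 0.274 and 0.388 in the tumours.

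Other epithelia that carry Krt20 were looked for through their markers. The urothelial genes Upk1a, Upk2 and Upk3a had no read in either tumour. Of 9 intestinal markers, the intestinal transcription factors Cdx1, Cdx2 and Isx, the mucin Muc2 and the surface antigen Gpa33 had no read in either tumour or in any pool but for Muc2 in 1 pool. The intestinal list nevertheless summed to 150 and 145 in the tumours, beside 29.2 to 186 in the pools, most of it the fatty acid binding protein Fabp2 at 133 and 135. Fabp2 also rose in the pools with CCl4, by 1.51 ± 0.156 on normal diet (adjusted p = 0.000525). Villin, Vil1, an actin bundler of microvilli that hepatocytes also use at the canaliculus, was 15.5 in tumour 1, 0.543 in tumour 2 and 0 to 3.22 in the pools. The intestinal cadherin Cdh17, singled out after its values were seen, was 0.547 in tumour 1 and 9.04 in tumour 2 (233 reads), against at most 0.23 in the pools. The galectin Lgals4 was 0.86 and 0.311 in the tumours and 0.355 to 1.15 in the pools. The 8 gastric and pancreatic markers summed to 0.43 and 0.272, and the 7 mesothelial markers to 5.79 and 3.34, against 5.73 to 11.3 in the pools. The list of 7 stratified epithelium markers, which includes Krt10, summed to 3.01 and 2.99, and 1.72 to 3.0 in the pools. Cell cycle markers summed to 77.0 and 46.5 in the tumours and 4.13 to 30.6 in the pools, stellate markers to 602 and 318 (90.6 to 733), macrophage markers to 390 and 315 (192 to 692), endothelial markers to 184 and 143 (95.8 to 199) and lymphocyte markers to 3.75 and 3.61 (2.84 to 9.08). The part of these in the tumour levels of Krt20 was not tested.

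Proteins that tie keratin filaments to the cell surface and to each other were followed in a list of 15 genes of plakins, desmosomes and other keratin-binding proteins, all tested. With CCl4 on normal diet 3 of the 15 rose and none fell, beside 15.3% of all tested genes that rose, so the share is near the background. The list's median was 0.36, beside 0.00414 for all genes. These were the plakins periplakin (Ppl, 1.29 ± 0.16, adjusted p = 0.00108), dystonin (Dst, 0.569 ± 0.109, adjusted p = 0.00735) and plectin (Plec, 0.485 ± 0.138, adjusted p = 0.0332). Ppl was the linker called most often. It rose with CCl4 on Western diet by 0.98 ± 0.16 (adjusted p = 0.0129), with Western diet under oil by 0.901 ± 0.16 (adjusted p = 0.0298) and with the joint exposure by 1.88 ± 0.16 (adjusted p = 0.000187). Its signal was 9.58 and 14.9 with normal diet and oil and 44.8 and 48.7 with both exposures, at 12 and 24 weeks. Ppl was therefore high in the 12-week pool with Western diet and CCl4, in which Krt8 was not. In the tumours Ppl was 38.7 and 66.5, and Plec was 120 and 119, above its range of 49 to 85 in the pools.

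Of 14 genes for components of keratin inclusions, 2 rose with CCl4 on normal diet, a share near that of all genes (15.3%). They were the small heat shock protein Hspb1 (1.12 ± 0.312, adjusted p = 0.0312) and the crosslinking enzyme Tgm2 (1.0 ± 0.238, adjusted p = 0.0171). None rose with CCl4 on Western diet, and with the joint exposure the chaperone Cryab rose (0.853 ± 0.251, adjusted p = 0.0366). Sqstm1, which encodes p62 and was singled out after its values were seen, was not called in any comparison. It was 1213 in tumour 1, 386 in tumour 2 and 324 to 601 in the pools. Among the 7 genes of the 14-3-3 family, which bind phosphorylated Krt18, Ywhah alone rose with CCl4 on normal diet (0.666 ± 0.122, adjusted p = 0.00606) and with the joint exposure (0.504 ± 0.122, adjusted p = 0.0179). Of all tested genes 15.3% and 15.7% rose in these comparisons, so 1 of 7 is near the background.

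Of 13 other intermediate filament genes 7 were tested. With CCl4 on normal diet, where 15.3% of all tested genes rose, 5 of these 7 rose. They were the mesenchymal filament gene Vim (1.58 ± 0.154, adjusted p = 0.000404), Synm (0.953 ± 0.213, adjusted p = 0.0135), Nes, and the lamins Lmna and Lmnb1. With the joint exposure, where 15.7% of all tested genes rose, 4 of the 7 rose. Among them were Vim at 1.88 ± 0.154 (adjusted p = 0.000174) and Des, the desmin of stellate and muscle cells, at 0.817 ± 0.203 (adjusted p = 0.0198). Vim was 65.3 in the 12-week pool with Western diet and CCl4, above the 17.97 to 34 of the oil pools, whereas Krt8 and Krt18 there stood near theirs. None of the lists had a called member in the tumour comparison.

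The genes most like each keratin were named by Pearson correlation of log2(signal + 1), as a description over libraries that share depth and exposure. Over the 8 pools, Krt8 was most like 6030419C18Rik (r = 0.996), followed by Iqgap3, Atp9a, Fignl1 and Sdcbp2. Krt18 ranked 483rd for Krt8, with r = 0.879. The signal of 6030419C18Rik was 5.41, 5.61 and 5.09 in the 3 CCl4 pools in which Krt8 was high and 0.269 in the 12-week pool with Western diet and CCl4, beside 0.0855 to 0.148 with oil. Krt18 was most like Nol3 (r = 0.981), Endod1, Capn1, Slc13a5 and Nup93. Krt23 was most like Pydc3 (r = 0.973), Bdh1, Fam188b, Gab1 and Sec23a. Krt20 was most like B3gnt8 (r = 0.983), Mfap2, Slc27a1, Snai1 and Lrrc27, but its pool values rest on 0 to 28 reads.

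Over all 10 libraries the tumours set these patterns. Krt20 was then most like Mfi2 (r = 0.993), a melanotransferrin gene with 7.43 and 4.43 in the tumours and at most 0.402 in the pools, with Vnn3, Noxa1 and Cyp3a57 also among the nearest. Vnn3 was 239 and 226 in the tumours and 47.6 to 70.4 in the pools. Krt23 was most like Lrrc8a (r = 0.979), Amot, Pxn, Gcnt2 and Trib1, all of which were higher in tumour 2 than in tumour 1. Amot, the angiomotin scaffold of cell junctions, was 41.6 in tumour 2, 10.8 in tumour 1 and 6.22 to 13.1 in the pools. Between Krt20 and Krt23 the correlation over 10 libraries was 0.548, and between Krt20 and Krt18 it was 0.845.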

How the data were processed

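RNA was taken from flash-frozen liver with an RNeasy kit, and poly-A libraries were built from 200 ng of total RNA, per the labels' protocols. The submitters' processing notes name STAR and mm10, without versions. Which read counter, strand setting, annotation and scaling the authors used was not given in the sources used here. Normalised signal values were deposited for 24062 genes in 10 libraries. Within 0.1 read, 100% of values above 0 were whole reads times 1 constant per library, so reads were recovered. Where a value is 0, up to 3 reads are allowed for, and intervals (95%, exact) cover counting error only.

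Values were taken as log2(value + 1). Genes with at least 1 in at least 2 libraries were tested with limma 3.58.1 (lmFit, then eBayes with a trend; two-sided). The design had a mean for each diet with each treatment and a duration term. This left 3 residual degrees of freedom for the 8 pools and 4 for the tumour comparison, which took all 10 libraries. Benjamini-Hochberg adjustment ran over 12648 genes, with a threshold of 0.05. edgeR 4.0.16 and DESeq2 1.42.0 on recovered reads were alternatives, beside other pseudocounts, filters, scalings and designs and each library left out. Fits were tested on simulated data. The members, the 18 gene lists (140 genes, of which 2 matched by an older symbol, Tf as Trf and Adgre1 as Emr1) and the tests were chosen with earlier results of these data known. Named genes were the 4 keratins, other tested keratins, up to 4 called genes per list with the largest change, and the 5 genes most like each keratin. Markers named for being at 0, and Vil1, Cdh17, Lgals4, Sqstm1, Krt222 and Krt79, were named besides. Gene models are GENCODE on GRCm38, and promoter sequences are from RefSeq on GRCm38.p6, where all 4 genes matched. Protein sequences were not used here, and 3 genes that these rules would name are not reported here.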

Additional observations from a re-analysis of the deposited data

How the results depend on the processing

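Direction and call of each of the 4 keratins were recomputed under up to 18 alternatives per comparison. The Krt23 calls for CCl4 on normal diet and for the joint exposure held under all but 1, the fit with tumours added. Krt20 is left out of the counts of called keratins, since only the tumours carried it past the filter. Of Krt8, Krt18 and Krt23, 2 were called for CCl4 on normal diet. The count was 1 with no filter, 3 with quantile normalization, 0 with all 10 libraries and 3 with DESeq2. For the joint exposure 1 was called, Krt23, and 1 with edgeR. The count was 2 with quantile normalization, 0 with all 10 libraries and 2 with DESeq2. Leaving out a library gave 0 to 2 for CCl4 on Western diet and for Western diet under CCl4, and 0 to 1 for the interaction.

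Counts of called genes moved more. With no filter they were 1353 for CCl4 on normal diet, 3 for CCl4 on Western diet, 1887 for the joint exposure and 0 for both diet comparisons and the interaction. With all 10 libraries in the fit they were 437, 6 and 796 for the first 3, 4 and 1 for Western diet with oil and with CCl4, and 0 for the interaction. Quantile normalization gave 470 for CCl4 on Western diet, 127 for Western diet with oil, 8 for the interaction and 217 for tumours. Without a trend there were 125 for Western diet with oil, 1 with CCl4 and 7 for the interaction. Without a duration term there were 203 for CCl4 on Western diet, 121 for Western diet with oil and 388 for tumours. DESeq2 gave 1319 for CCl4 on Western diet, 570 and 67 for the diet with oil and with CCl4, 132 for the interaction, 745 for tumours and, for duration, 90, where edgeR gave 1. With a library left out, counts ran from 1021 to 3659 for CCl4 on normal diet, 29 to 891 on Western diet, 17 to 390 and 2 to 117 for the diet with oil and with CCl4, 1214 to 3136 for the joint exposure, 0 to 79 for the interaction, 0 to 1 with duration and 0 to 2394 in tumours. The cause was not tested.

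Uncalled differences changed sign in places. The Krt20 interaction was -0.028 with a pseudocount of 0.1, -3.38 with edgeR and -2.51 with DESeq2, and -0.11 to 0.38 with a library left out. With a library left out, Krt18 ran from -0.051 to 0.67 for CCl4 on Western diet, -0.32 to 0.40 for the joint exposure and -0.59 to 0.14 for the interaction, and for Western diet with oil Krt8 ran from -0.10 to 0.29 and Krt20 from -0.13 to 0.36. A left-out library leaves a lone pool, assumed to vary like the others, and takes the gap within its pair out of the spread. Calls gained with a library left out are therefore not read as results. Median-ratio scaling moved the tumour folds of the 4 keratins by less than their counting intervals. The duration term sets pools of the same week against each other, and without it the number of keratins called was the same in each comparison. Reads of Krt20 in the pools, 0 to 28, limit what the pools can show. Only the tumours carried Krt20 past the filter, so its differences above describe dependence on the processing and are not results for the pools.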
